A study of Homo sapiens with 8 samples.

Results

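Fatty acid synthesis and oxidation were followed through 33 genes, chosen by their known roles in making, activating, importing and burning fatty acids. Earlier results of these data were known when they were chosen. All 33 were found by symbol among the 40693 symbols of the deposited RNA sequencing tables, and none of them was repeated. They comprise 6 genes of synthesis, 6 of elongation and desaturation, 4 of activation, 3 of carnitine import, 12 of mitochondrial and peroxisomal beta-oxidation, and PPARG and PLIN2, a regulator and a lipid droplet coat.

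Fatty acids are built in the cytosol from acetyl-CoA, which ACLY makes from citrate and ACSS2 makes from acetate, and acetyl-CoA carboxylase commits it to the chain that FASN completes. Long-chain acyl-CoA synthetases join coenzyme A to a free fatty acid, after which it can be stored, built into membranes or sent for oxidation. CPT1A loads it onto carnitine at the mitochondrial surface, the step that malonyl-CoA from the synthesis side inhibits, and a repeating set of dehydrogenation, hydration and cleavage reactions then shortens it. In the intestine and its tumours these genes serve both membrane building and the use of fat as fuel.

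The samples were 2 established human lines from colorectal adenocarcinoma, SW480, labelled Dukes' type B, and SW620, labelled Dukes' type C, grown in DMEM with 10% fetal bovine serum. Each untreated line had 1 library. SW620 also carried, as stable populations selected with 2 µg/ml puromycin, a lentiviral U6 vector with a puromycin resistance and mCherry cassette and either a hairpin against the transcription factor FOXA2 (shFOXA2, 3 libraries) or a control hairpin (shNC, 3 libraries). The shFOXA2 titles carry a 1 before the replicate number, which is read here as hairpin 1 of the 2 that were made. No source used here says that replicates came from separate cultures, so p-values measure the spread between these libraries, which may be technical.

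Total counts were 72323506 for SW480, 95935348 for SW620 and 7478411 to 13076566 for the hairpin libraries. Levels are given as CPM, the count scaled to library size. For single genes that size was TMM-adjusted, separately for hairpin and untreated libraries, so their CPM share no common scale. Marker sums and the limit of 3 counts were scaled by total counts. On that scale 3 counts equalled 0.0313 to 0.401 CPM from the deepest to the shallowest library. The 33 genes took 0.346% to 0.387% of all counts in each library. FOXA2 read 52.5, 49.0 and 51.9 CPM in the shNC libraries and 30.3, 29.3 and 22.2 CPM in the shFOXA2 libraries, a difference of -0.91 ± 0.09 log2 units (SE, adjusted p = 6.88e-10), so the knockdown was partial. Colon epithelial markers summed to 6071 to 8783 CPM, with 1 of 9 at 0 in SW480 (KRT20) and none at 0 elsewhere. The 6 adipocyte markers summed to at most 4.83 CPM in every library, and FABP4 was at 0 in SW480 and in all hairpin libraries. Fibroblast and endothelial markers (7 of 8 in the tables) summed to 16.5 to 22.1 CPM in shFOXA2 and 11.6 to 13.2 CPM in shNC, with COL1A2 and COL3A1 at 0 in all 8 libraries. The 7 leukocyte markers summed to 24.0 to 28.6 CPM in shFOXA2 and 18.4 to 23.5 CPM in shNC, with MS4A1 at 0 in all 8. Only some markers of the 2 lists moved with the hairpin, all at low levels. Mean CPM in shNC and shFOXA2 was 4.86 and 8.72 for LYZ (adjusted p = 4.95e-05) and 8.87 and 12.8 for LUM (adjusted p = 0.00111). For COL1A1 it was 2.175 and 4.42 (adjusted p = 4.50e-04). The other markers of these lists in the tables did not pass or were too low to be tested. The part of these markers in the members' results was not tested. The library of shFOXA2 replicate 1 stood apart from its group, and so did that of shNC replicate 1. Chi-square per degree of freedom over genes was 3.69 and 4.25 for shFOXA2 replicate 1 against replicates 2 and 3, and 1.62 between those. For shNC replicate 1 it was 4.16 and 4.06, and 1.70 between shNC replicates 2 and 3. In shFOXA2 replicate 1 the 7 hepatocyte markers summed to 177.5 CPM against 25.6 to 27.4 CPM in the other 5 hairpin libraries. This was mostly through 1882 counts of APOB against 41 to 65, and APOA1 had 46 counts against 1 to 5. The remaining markers lay within the range of those 5 libraries, with TTR at 0 in all 8 libraries and ALB at 13 counts in shFOXA2 replicate 1. In that library 5 of the 32 members tested read more than 1.5 times every other hairpin library, against 0.988% of all tested genes, so each result on the members was also computed without it.

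Between shFOXA2 and shNC, 8 members rose and 6 fell among the 32 tested. That is 43.8% of the members, beside 39.0% of all 16100 tested genes, with 19.2% of all genes higher and 19.8% lower. ACADL, at 0 to 2 counts per hairpin library, was too low to be tested. The median log2 fold change of the members was 0.13, and 0.045 without shFOXA2 replicate 1, beside a median of 0.01 over all genes. The 2 groups of 3 libraries did not overlap for 12 members on the higher side and 7 on the lower side, and the share over all genes was 48.7%. Changes called here were modest, since the median size over all called genes was 0.36 on the log2 scale. In total RNA from a whole culture, fewer cells of a type and less RNA per cell cannot be told apart. Without shFOXA2 replicate 1, all 14 called members were still called and SCD and ECI2 joined them.

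**Figure D1:**
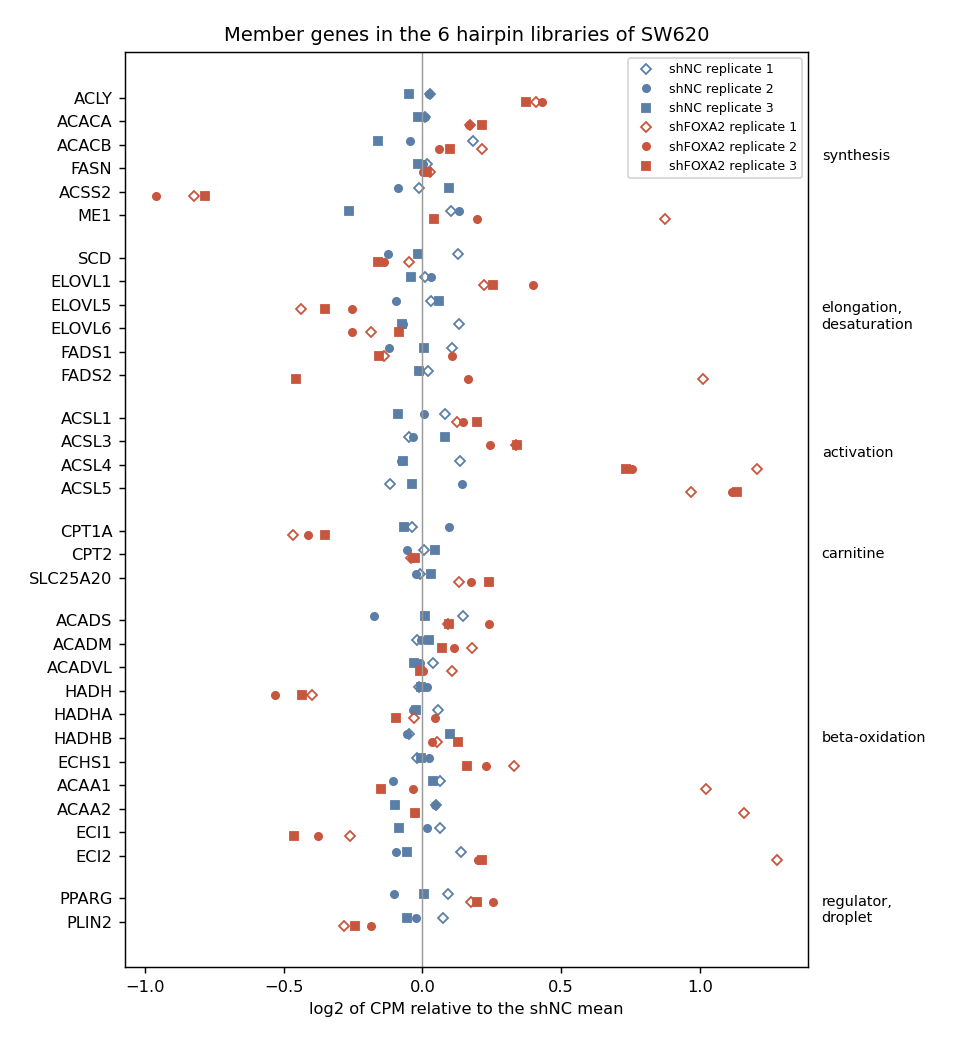
Each of the 32 tested members in the 6 hairpin libraries of SW620, as log2 of CPM relative to the mean of the 3 shNC libraries (x axis), with shNC in blue and shFOXA2 in red and 1 marker shape per replicate number. ACSL4, ACSL5 and ACLY lie to the right and ACSS2, CPT1A and HADH to the left in all 3 shFOXA2 libraries, while ME1, FADS2, ACAA1, ACAA2 and ECI2 have 1 distant point, shFOXA2 replicate 1.

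The 2 enzymes that supply cytosolic acetyl-CoA moved in opposite directions. ACLY (GRCh38, chr17:41866908-41930542, minus strand), the citrate-cleaving enzyme, read 249.6, 249 and 237 CPM in shNC and 325, 331 and 317 CPM in shFOXA2. All 3 shFOXA2 libraries were above all 3 shNC libraries, and ACLY rose by 0.40 ± 0.04 log2 units (SE, adjusted p = 1.54e-10). ACSS2 (chr20:34872146-34927962, plus strand), which activates acetate, read 20.7, 19.6 and 22.3 CPM in shNC and 11.8, 10.7 and 12.1 CPM in shFOXA2. Here all shFOXA2 libraries were the lower ones, and ACSS2 fell by 0.85 ± 0.11 log2 units (SE, adjusted p = 1.28e-08), the largest fall among the members. Per length, the ratio of ACLY to ACSS2 was 10.96 to 13.1 in the shNC libraries and 27.0 to 31.8 in the shFOXA2 libraries.

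Of the other 4 synthesis genes, 1 rose and none fell. ACACA, the cytosolic acetyl-CoA carboxylase, read 128, 127.5 and 125 CPM in shNC and 143, 142 and 147 CPM in shFOXA2. Its groups did not overlap, and it rose by 0.18 ± 0.05 log2 units (SE, adjusted p = 0.0011). FASN, the fatty acid synthase itself, read 339.6, 336 and 332 CPM in shNC and 342, 337 and 339.6 CPM in shFOXA2. The 2 groups overlapped, and its difference was 0.02 ± 0.04 log2 units (SE, adjusted p = 0.799). ACACB, the carboxylase isoform of the mitochondrial surface, did not pass at 0.13 (SE 0.11, adjusted p = 0.376). ME1, which makes NADPH for synthesis, had 25.03 ± 3.64 CPM in shNC and 33.4 ± 10.9 CPM in shFOXA2 (SD, n = 3) and did not pass (adjusted p = 0.325). Its shFOXA2 mean rested on replicate 1, at 45.8 CPM against 28.7 and 25.7 CPM.

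Among the genes that lengthen and desaturate fatty acids, 1 rose and 1 fell of 6. ELOVL1, an elongase of very long chains, read 73.3, 74.3 and 70.6 CPM in shNC and 84.9, 95.9 and 86.8 CPM in shFOXA2. It rose by 0.29 ± 0.05 log2 units (SE, adjusted p = 2.42e-05) with no overlap between groups. ELOVL5, an elongase of polyunsaturated chains, read 144, 132 and 147 CPM in shNC and 104, 118 and 111 CPM in shFOXA2. It fell by 0.35 ± 0.05 log2 units (SE, adjusted p = 3.56e-07), again with separate groups.

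SCD, the desaturase that makes oleate, read 831.5, 697 and 751 CPM in shNC and 735.5, 691 and 680.0 CPM in shFOXA2. The highest shFOXA2 library lay within the shNC range, and the log2 fold change of -0.11 (SE 0.05) did not pass (adjusted p = 0.1004). Without shFOXA2 replicate 1 it was -0.15 and passed (adjusted p = 0.0313), and without shNC replicate 2 it was -0.18 (adjusted p = 0.0066). Without shNC replicate 1, its highest library, it was -0.06 (adjusted p = 0.328). ELOVL6, which lengthens palmitate, had separate groups but did not pass at -0.17 (SE 0.10, adjusted p = 0.164). FADS1 and FADS2, the desaturases of polyunsaturated fatty acids, did not pass, at -0.07 (SE 0.07) and 0.40 (SE 0.42). FADS2 read 9.12 to 9.34 CPM in shNC, 18.6 CPM in shFOXA2 replicate 1 and 10.3 and 6.71 CPM in the other 2, and its log2 fold change without replicate 1 was -0.14 (SE 0.17). Annotated exons of FADS1 and FADS2 overlap on opposite strands, and those of FADS2 overlap FEN1 on the same strand, so their counts are uncertain where the counting did not separate them.

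Of the 4 synthetases that activate long-chain fatty acids, 3 rose and none fell. ACSL5 (chr10:112374018-112428380, plus strand), an isoform abundant in intestine, read 6.93, 8.31 and 7.33 CPM in shNC and 14.7, 16.3 and 16.5 CPM in shFOXA2. Every shFOXA2 library was well above every shNC library, and ACSL5 rose by 1.07 ± 0.13 log2 units (SE, adjusted p = 3.51e-09), the largest rise among the members. Exons of ACSL5 overlap those of ZDHHC6 on the opposite strand, as exons of ACLY, CPT2, ACADVL, ACAA1 and ECI2 overlap other genes. Without a stated use of strand such reads cannot be assigned with certainty. Exons of ACAA2 overlap those of AC090227.1 on the same strand, where use of strand would not separate the reads.

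ACSL4 (chrX:109624244-109733403, minus strand), which prefers arachidonate, read 85.6, 73.8 and 74.2 CPM in shNC and 179.5, 131.5 and 129.6 CPM in shFOXA2. The groups lay far apart, but the shFOXA2 libraries were unequal, with replicate 1 the highest. ACSL4 rose by 0.92 ± 0.17 log2 units (SE, adjusted p = 0.0164). Leaving out shNC replicate 2 or shNC replicate 3 ended the call (adjusted p = 0.0675 and 0.0677), and leaving out shFOXA2 replicate 1 gave 0.74 ± 0.06 log2 units (adjusted p = 8.24e-16).

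ACSL3, an isoform of the endoplasmic reticulum and lipid droplets, read 66.8, 67.3 and 72.9 CPM in shNC and 87.1, 81.6 and 87.3 CPM in shFOXA2. Its groups were separate, and it rose by 0.31 ± 0.05 log2 units (SE, adjusted p = 8.94e-06). ACSL1, an isoform linked to fat storage and oxidation, had separate groups at 24.1 to 27.1 CPM in shNC and 27.9 to 29.3 CPM in shFOXA2 but did not pass (log2 fold change 0.16, SE 0.08, adjusted p = 0.142). Summed per length, the 4 synthetases came to 27.0 to 28.1 RPKM (the count scaled by gene length and library total) in the shNC libraries and 39.6 to 47.6 RPKM in the shFOXA2 libraries. ACSL4 made up 42.4% to 46.7% of that sum in shNC and 49.4% to 58.3% in shFOXA2.

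**Figure D2:**
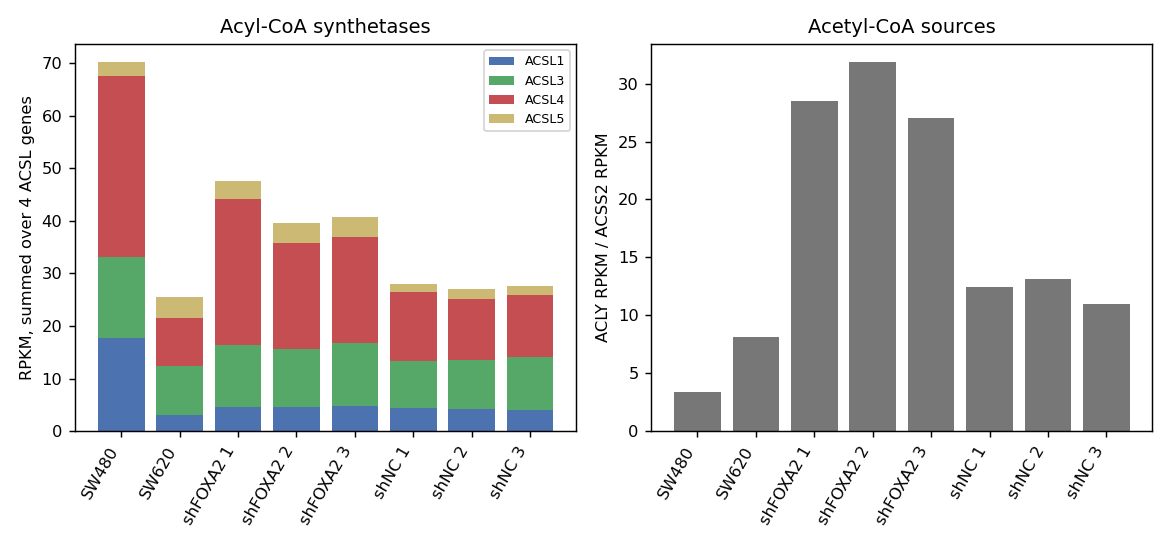
Left, the RPKM of ACSL1, ACSL3, ACSL4 and ACSL5 stacked for each of the 8 libraries; right, the ratio of ACLY RPKM to ACSS2 RPKM in each library. The summed synthetase level is 39.6 to 47.6 RPKM in shFOXA2 against 27.0 to 28.1 RPKM in shNC. It is 70.2 RPKM in untreated SW480 and 25.6 RPKM in untreated SW620, which were not tested against the hairpin libraries. The ACLY to ACSS2 ratio is highest in the 3 shFOXA2 libraries.

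Of the 3 genes of carnitine import, 1 fell and none rose. CPT1A (chr11:68754620-68844410, minus strand), the gate to mitochondrial oxidation, read 200.2, 219.5 and 196 CPM in shNC and 149, 154 and 161 CPM in shFOXA2. All shFOXA2 libraries were the lower ones, and CPT1A fell by 0.41 ± 0.05 log2 units (SE, adjusted p = 2.09e-09). It remained called in all 14 alternatives, with a largest adjusted p of 2.91e-07. CPT2, which removes the carnitine again, did not pass (-0.04 ± 0.08 log2 units, adjusted p = 0.758), with 32.4 to 34.8 CPM in shNC and 32.7 to 33.1 CPM in shFOXA2. SLC25A20, the carrier between them, read higher in all 3 shFOXA2 libraries but did not pass (0.18, SE 0.11, adjusted p = 0.202). Per length, the ratio of CPT1A to CPT2 was 2.93 to 3.51 in the shNC libraries and 2.36 to 2.52 in the shFOXA2 libraries.

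Short stretches of the hairpin 1 target are shown because CPT1A carries 1 of them. The target is printed first with the positions 11 to 18 in capitals, which cover the 7-base stretches at positions 11 to 17 and 12 to 18, and then with the complement of the nominal guide seed, positions 14 to 20, in capitals. The next 3 lines give the 3' UTR sites, with the 8 bases shared with the target in capitals.
FOXA2 hairpin 1 target, shifted stretches: gaacggcatgAACACGTAcat
FOXA2 hairpin 1 target, nominal seed complement: gaacggcatgaacACGTACAt
CPT1A: cttgccggaGAACACGTgccttttttt
PPARG: attgtcacgGAACACGTgcagctactg
SCD: gggatctgaGAACACGTtgccaggggc

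In GENCODE v29 transcripts (GRCh38), no 3' UTR of the 32 members searched held the nominal seed complement, and 3 held a shifted stretch, in each case AACACGT. The site of CPT1A lies at chr11:68756137-68756143 in its last exon, 19 of 19. The SCD site lies at chr10:100362220-100362226 in exon 6 of 6, and the PPARG site at chr3:12434054-12434060 in exon 6 of 6 of a transcript with a 3' UTR of 301 bases. CPT1A was lower in shFOXA2, SCD did not pass, and PPARG was higher. Of 12912 genes searched and tested, 5.75% held a shifted stretch, and among those 743 genes 37.6% were lower and 17% higher, with a median log2 fold change of -0.09. Over all genes searched and tested, 21.7% were lower and 22.0% higher, with a median of 0.01. The 304 genes with the nominal seed complement were 26.6% lower and 23.0% higher. For the control hairpin, the nominal seed complement was held by ACAA1, ACACB and ACSL3 and the stretches at the same shifted positions by ACADVL, ACSL4 and ECHS1. Of these 6, ACSL3, ACSL4 and ECHS1 were higher in shFOXA2 and the other 3 did not pass. The ACAA1 site lies in exon 9 of 13 of its transcript, while the sites of the others lie in the last exon. Among the 2816 genes with a shifted control stretch 25.5% were higher and 19.6% lower, and among the 1596 with the nominal control seed complement 23.2% were higher and 21.6% lower. The part of the control hairpin in these results was not tested. The shifted stretches were picked by an earlier ranking of these same libraries, so these shares are no independent support. No library of the second FOXA2 hairpin is among those analysed, so loss of FOXA2 and other effects of hairpin 1 on CPT1A cannot be told apart. The same limit holds for every other gene compared between shFOXA2 and shNC.

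Of the 11 beta-oxidation members tested, 1 rose and 2 fell. ECHS1, the enoyl-CoA hydratase of short chains, read 226, 232 and 228 CPM in shNC and 287, 268 and 256 CPM in shFOXA2. It rose by 0.24 ± 0.04 log2 units (SE, adjusted p = 2.05e-05), with separate groups. HADH, the hydroxyacyl-CoA dehydrogenase of medium and short chains, read 30.6, 31.2 and 30.8 CPM in shNC and 23.4, 21.3 and 22.8 CPM in shFOXA2.

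The 3 shNC libraries of HADH were nearly equal and all above the shFOXA2 libraries, and HADH fell by 0.45 ± 0.08 log2 units (SE, adjusted p = 2.57e-05). ECI1, the mitochondrial enoyl-CoA isomerase needed for unsaturated chains, read 45.0, 43.5 and 40.6 CPM in shNC and 35.9, 33.1 and 31.2 CPM in shFOXA2. It fell by 0.36 ± 0.08 log2 units (SE, adjusted p = 1.25e-04), also with separate groups. The hydratase was thus higher while the dehydrogenase of the next step was lower.

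The acyl-CoA dehydrogenases and the trifunctional protein gave no call. ACADS, ACADM and ACADVL, which act on short, medium and very long chains, had log2 fold changes of 0.14 (SE 0.15), 0.12 (SE 0.06) and 0.03 (SE 0.04), with adjusted p of 0.489, 0.102 and 0.562. HADHA and HADHB, the subunits of the trifunctional protein, had -0.03 (SE 0.05) and 0.07 (SE 0.06), with adjusted p of 0.681 and 0.343. The groups overlapped for ACADS, ACADVL, HADHA and HADHB, while ACADM read higher in every shFOXA2 library. ACADL, the long-chain dehydrogenase, had 0 to 2 counts in each hairpin library, at or under the limit of 3 counts, and no fold is given.

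The thiolases ACAA1 (peroxisomal) and ACAA2 (mitochondrial) and the isomerase ECI2 read high in a single library. ACAA1 read 47.0, 41.9 and 46.2 CPM in shNC and 91.5, 44.0 and 40.6 CPM in shFOXA2. ACAA2 read 38.9, 38.8 and 35.2 CPM in shNC and 83.96, 37.0 and 37.0 CPM in shFOXA2. ECI2 read 59.1, 50.3 and 51.6 CPM in shNC and 130.1, 61.7 and 62.3 CPM in shFOXA2. In all 3 genes shFOXA2 replicate 1 was about 2-fold above the next library, at 1.95, 2.16 and 2.09 times.

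None of the 3 passed with that library (adjusted p = 0.483, 0.407 and 0.245). Without it, the log2 fold changes of ACAA1 and ACAA2 were -0.10 (SE 0.08) and -0.03 (SE 0.08), and ECI2 passed at 0.21 (SE 0.07, adjusted p = 0.0205). APOB, of the hepatocyte list, at 157 CPM in that library and 3.66 to 5.57 CPM in the other 5 hairpin libraries, moved with these genes. So did ME1 and FADS2, and the part of APOB in the result was not tested. Of the same list APOA1 also read high in that library, while ALB, TTR, SERPINA1, TF and CPS1 did not.

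**Figure D3:**
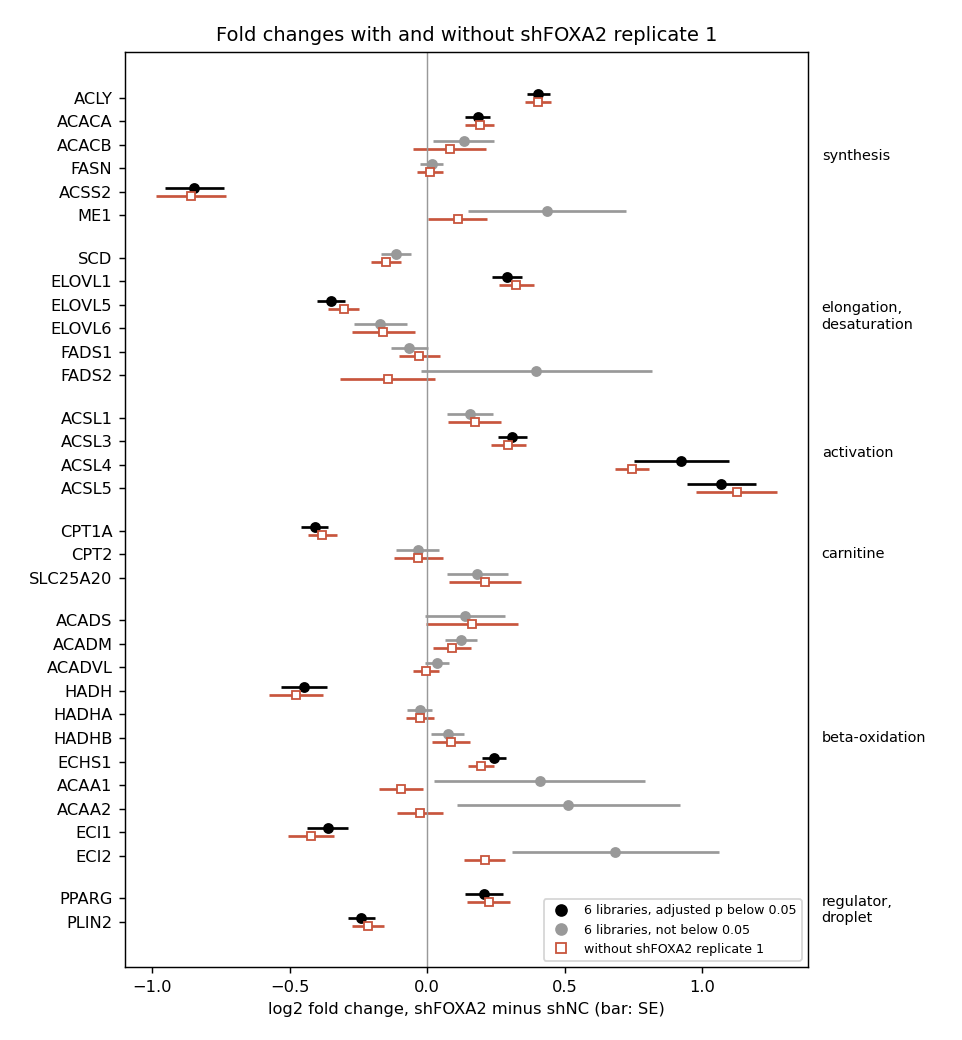
The log2 fold change of each tested member, shFOXA2 minus shNC (x axis, bars: 1 SE), from all 6 hairpin libraries (circles, black where the adjusted p is below 0.05) and without shFOXA2 replicate 1 (red squares). The long bars of ME1, FADS2, ACAA1, ACAA2 and ECI2 shorten without that library, while ACSL5, ACSS2, CPT1A, HADH and ACLY stay where they were.

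The nuclear receptor and the droplet coat moved in opposite directions. PPARG (chr3:12287368-12434356, plus strand), a receptor that drives fat storage genes, read 43.6, 38.1 and 41.0 CPM in shNC and 46.2, 48.8 and 46.9 CPM in shFOXA2. The groups were close but separate, and PPARG rose by 0.21 ± 0.07 log2 units (SE, adjusted p = 0.0159). The call ended when shFOXA2 replicate 2, shFOXA2 replicate 3 or shNC replicate 2 was left out (adjusted p = 0.0639, 0.0509 and 0.128), with DESeq2 (0.102) and with no filter on low counts (0.0589).

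PLIN2 (chr9:19108375-19149290, minus strand), the main droplet coat of non-adipose cells, read 120.0, 112 and 109.8 CPM in shNC and 93.8, 100.2 and 96.3 CPM in shFOXA2. It fell by 0.24 ± 0.05 log2 units (SE, adjusted p = 8.54e-05) with separate groups. ADIPOQ, LEP, FABP4 and LPL, 4 of the 6 adipocyte markers, were at 0 in shFOXA2 replicates 2 and 3, with the sum of all 6 at 0.801 to 1.58 CPM in shFOXA2 and 0.690 to 1.24 CPM in shNC.

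Promoter sequence was matched for 31 members in RefSeq (GRCh38.p14, 250 bases before to 50 after the start), and 4 motifs were searched on both strands. The forkhead motif TGTTTAC, the type of sequence FOXA2 binds, was found in 1 member, ELOVL6, against 3.41% of 27305 promoters. Its window, shown because it is the single forkhead match, lies at chr4:110198737-110198773 and is given on the gene's minus strand with the match, on the reverse complement, in capitals.
ELOVL6: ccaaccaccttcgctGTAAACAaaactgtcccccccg

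The E-box CACGTG, bound by carbohydrate and sterol response factors, was found in 2 of the 31 members, ELOVL5 and PLIN2, against 7.43% of promoters. Both of these genes were lower in shFOXA2, as were 19.8% of all tested genes. Any link between the E-box and that direction was not tested. The sterol element core TCACNCCAC and the direct repeat AGGTCANAGGT of the PPAR and RXR pair were found in no member, against 1.15% and 0.114% of promoters. A match is a description of these letters in this window, and neither ELOVL5 nor PLIN2 held any of the other motifs searched.

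A further 107 genes of the pathway were read from the same fit, of which 88 were tested, with 17 higher and 23 lower (45.5%, beside 39.0% of all tested genes, 19.2% higher and 19.8% lower). The other synthesis genes were mostly lower where called, with 3 higher and 9 lower of 20 and a median of -0.17. IDH1, a cytosolic source of NADPH, rose by 0.62 ± 0.06 log2 units (SE, adjusted p = 2.76e-09). MLXIP, a glucose-responsive factor, fell by 0.45 ± 0.05 log2 units (SE, adjusted p = 9.47e-09), and SREBF1, a sterol-responsive factor of lipid synthesis genes, fell by 0.38 ± 0.05 log2 units (SE, adjusted p = 3.94e-08). SREBF1 read 171, 152.5 and 157 CPM in shNC and 129.6, 119 and 121 CPM in shFOXA2, with separate groups.

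Other uptake and activation genes had 4 higher and none lower of 14 tested. That is 28.6%, beside 39.0% of all tested genes, with 19.2% of all genes higher and 19.8% lower. Without shFOXA2 replicate 1 the list had 4 higher and 1 lower, SLC27A5, a bile acid and very long chain ligase named here after its value was seen. FABP1, a fatty acid binding protein that was not tested, had 108 counts in shFOXA2 replicate 1 and 0 to 5 in the other hairpin libraries. It was also named after its value was seen. ACOT9, a mitochondrial thioesterase, had a log2 fold change of 0.22 (adjusted p = 4.05e-04), SLC27A4, a fatty acid transporter, 0.33 (adjusted p = 5.43e-04) and SLC27A2, a very long chain synthetase, 0.52 (adjusted p = 0.00182). Of the other mitochondrial oxidation genes, 1 was higher and 3 were lower of 15. HSD17B10, a dehydrogenase of short chains, rose by 0.24 (adjusted p = 2.49e-04), ACAD9 fell by 0.25 (adjusted p = 5.25e-04) and the electron carrier ETFA fell by 0.17 (adjusted p = 0.00636), which did not pass once shFOXA2 replicate 1 was left out (adjusted p = 0.0815).

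Peroxisomal oxidation had 2 higher and 5 lower of 13 tested. AMACR, the racemase of branched chains, read 51.6, 50.9 and 51.1 CPM in shNC and 30.3, 29.2 and 30.5 CPM in shFOXA2. The libraries of each group were nearly equal, and AMACR fell by 0.77 ± 0.07 log2 units (SE, adjusted p = 4.37e-12). ABCD3, a peroxisomal importer, fell by 0.31 (adjusted p = 2.66e-04), and CROT, the peroxisomal carnitine transferase, rose by 0.51 (adjusted p = 9.01e-04). ACOX2, the branched-chain oxidase, had 246 counts in shFOXA2 replicate 1 and 4 to 11 in the other hairpin libraries. PECR read 6.93 to 7.98 CPM in shNC and 22.2, 8.965 and 13.1 CPM in shFOXA2, with separate groups. Neither gene passed with all hairpin libraries (adjusted p = 0.2196 for ACOX2 and 0.1186 for PECR). Without shFOXA2 replicate 1, PECR passed at 0.56 (SE 0.17, adjusted p = 0.00559), while ACOX2 did not, at 0.08 (SE 0.53, adjusted p = 0.933). These 2 were named after their values were seen, as the peroxisomal genes over 1.5 times every other hairpin library in that replicate.

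Storage and lipolysis genes had 4 higher and 3 lower of 17. DGAT2, which makes triglyceride, fell by 0.85 ± 0.17 log2 units (SE, adjusted p = 7.51e-05), the droplet protein HILPDA fell by 0.42 (adjusted p = 9.36e-04) and the phosphatidate phosphatase LPIN2 fell by 0.31 (adjusted p = 0.0016). Among PPAR partners and ketogenesis genes, 3 were higher and 3 lower of 9. RXRA, the partner of PPARG, fell by 0.62 ± 0.11 log2 units (SE, adjusted p = 8.33e-06), and BDH1, a ketone body enzyme, fell by 0.29 (adjusted p = 0.00396). PDK4, a brake on glucose oxidation, read 1.246, 1.00 and 1.14 CPM in shNC and 3.09, 2.04 and 2.70 CPM in shFOXA2, a low level, and rose by 1.23 ± 0.30 log2 units (SE, adjusted p = 7.70e-04).

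The untreated lines were compared as 1 library each, so the ratios describe 2 libraries, with exact 95% intervals for counting error only and no test, and a difference between the lines and one between their libraries cannot be told apart. The SW480 library held 319 counts of FOXA2 and the SW620 library 7882. Among the 33 members, 10 were at least 2-fold apart, 4 with SW620 the higher line and 6 with SW480. Of 21343 genes, 16.0% passed this limit towards SW620 and 15.5% towards SW480. The median log2 ratio, SW620 over SW480, was -0.10 for the members and 0.03 for all these genes. Mitochondrial transcripts took 11.1% to 11.75% of counts in the untreated lines and 4.46% to 4.82% with a hairpin, so levels of untreated and hairpin libraries were not tested against each other.

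The 6 members at least 2-fold higher in SW480 were ACSS2, ME1, FADS2, ACSL1, ACSL4 and ACADL. ACSS2 read 87.5 CPM in SW480 and 25.1 CPM in SW620, 3.48-fold apart (3.32 to 3.65). ME1 read 56.9 and 23.0 CPM, 2.47-fold apart (2.35 to 2.61), and FADS2 read 47.5 and 13.3 CPM, 3.56-fold apart (3.34 to 3.80). ACSL1 read 111 CPM in SW480 and 18.9 CPM in SW620, a 5.88-fold difference (5.58 to 6.19), and ACSL4 read 226 and 57.8 CPM, 3.91-fold apart (3.79 to 4.03). ACADL, the long-chain dehydrogenase, had 32 counts in SW480 and 8 in SW620, a 5.49-fold difference with a wide interval (2.48 to 13.8). With 1 CPM added to each library its log2 ratio went from -2.46 to -0.42. It also had fewer than 100 counts in its higher library, and with that minimum or with 1 CPM added 5 members were at least 2-fold higher in SW480.

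SW620 had the higher level of the regulator, the droplet coat and 2 enzymes. PPARG read 43.3 CPM in SW620 and 10.0 CPM in SW480, 4.32-fold apart (3.99 to 4.68). ACADS read 9.08 and 3.01 CPM, 3.02-fold apart (2.60 to 3.53), and ACACB read 26.9 and 11.3 CPM, 2.38-fold apart (2.20 to 2.58). PLIN2 read 159 CPM in SW620 and 79.2 CPM in SW480, 2.00-fold apart (1.94 to 2.06), just past the limit, and SLC25A20, at 1.996-fold, lay just under it. With 1 CPM added PLIN2 fell under the limit and 3 members were left on the SW620 side, and with scaling by total counts SLC25A20 joined and there were 5.

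Carnitine import read higher in SW620 for all 3 genes, with CPT1A at 290 CPM against 161.5 CPM, 1.80-fold apart (1.76 to 1.83), and CPT2 1.23-fold apart. Of core synthesis, ACLY, ACACA and FASN read higher in SW480, with ACLY 1.45-fold, ACACA 1.55-fold and FASN 1.74-fold apart, and FASN at 328 CPM against 189 CPM. SCD was level, at 784 CPM in SW480 and 781 CPM in SW620, a ratio of 1.00 (0.993 to 1.015) whose direction turned with scaling by total counts. ECHS1 read 149 CPM in SW620 and 77.4 CPM in SW480 (1.92-fold), while HADH read 53.2 CPM in SW480 and 29.8 CPM in SW620 (1.79-fold). The other 14 members were 1.04-fold to 1.80-fold apart.

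**Figure D4:**
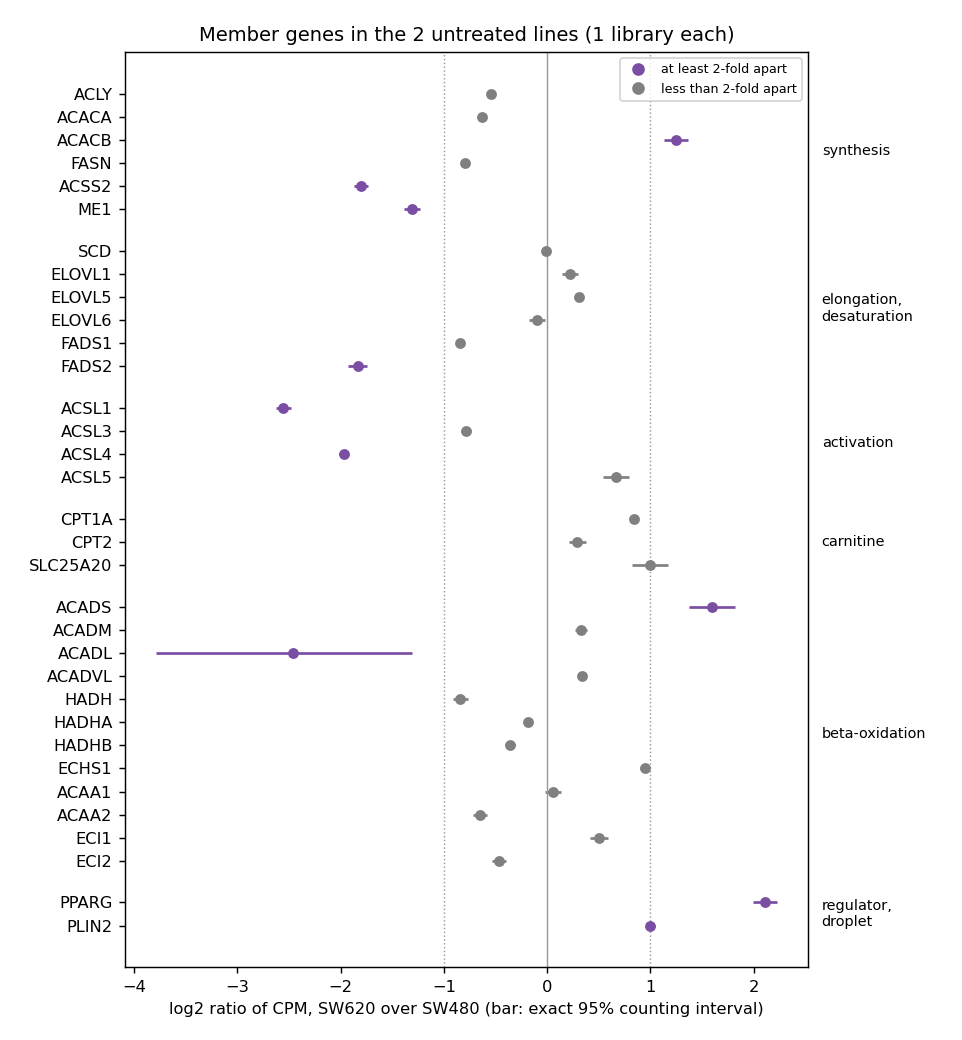
The log2 ratio of CPM, SW620 over SW480, for all 33 members (x axis, bars: exact 95% counting interval, 1 library per line), with members at least 2-fold apart in purple and dotted lines at 2-fold. ACSL1, ACADL, ACSL4, FADS2, ACSS2 and ME1 lie on the SW480 side and PPARG, ACADS, ACACB and PLIN2 on the SW620 side.

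Among the other pathway genes, those at least 4-fold apart with 100 counts in the higher library were mostly higher in SW480. ACSL6, an acyl-CoA synthetase of brain and blood cells, had 1971 counts in SW480 and 3 in SW620, a ratio of 902 with a counting interval of 308 to 4378. ACOX2 was 51.2-fold higher in SW480, and ACSS1, the mitochondrial acetate enzyme, 43.3-fold higher. HACD1, G0S2, INSIG1, PPARD and LPIN1 were 11.1, 9.43, 5.19, 4.81 and 4.49-fold higher there. SW620 was higher for PPARGC1A, a coactivator of oxidation genes (9.02-fold), and DECR1, a reductase for unsaturated chains (4.52-fold).

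Levels were set per length, and the leading member was the same by count alone in 18 of 24 pairs of role and group. By count, FASN led synthesis in SW480, shNC and shFOXA2, ACADVL led beta-oxidation in all groups, and ELOVL5 stayed above ELOVL1 in shFOXA2, so these ranks depend on the listed lengths. SCD stood at the top of elongation and desaturation, at 143 RPKM in SW480, 148 in SW620, 142 ± 10.9 in shNC and 129.7 ± 5.34 in shFOXA2 (SD, n = 3 for the hairpin groups). ACLY led synthesis, at 53.7, 38.3, 46.9 ± 0.98 and 61.6 ± 0.91 RPKM in the same order, with FASN next in every group. FASN was at 37.4 ± 0.23 RPKM in shNC and 37.5 ± 0.49 RPKM in shFOXA2. In shFOXA2, ELOVL1 (36.0 ± 2.19 RPKM) stood above ELOVL5 (26.0 ± 1.59 RPKM), the reverse of the other 3 groups, and in shNC they were at 29.6 ± 0.69 and 33.4 ± 1.93 RPKM.

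ECHS1 led beta-oxidation in 3 groups, at 141 ± 3.74 RPKM in shNC and 166 ± 9.38 RPKM in shFOXA2, and ACADVL led in SW480, at 64.6 RPKM against 46.9 RPKM for ECHS1. ACADL stood last in all groups. Of the synthetases, ACSL4 led in SW480 (34.5 RPKM), shNC (12.1 ± 0.85) and shFOXA2 (22.7 ± 4.37), while in untreated SW620 ACSL3 and ACSL4 were level at 9.25 and 9.14 RPKM. ACSL5 stood last in SW480, shNC and shFOXA2, and ACSL1 stood last in untreated SW620. By count ACSL5 was last in untreated SW620 too, at 1699 against 1839 for ACSL1, so that rank depends on the listed lengths. The summed synthetase level was 70.2 RPKM in SW480 and 25.6 RPKM in SW620, and the ratio of ACLY to ACSS2 was 3.37 and 8.09.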

How the data were processed

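RNA sequencing counts of 8 libraries were analysed. The authors' deposited tables give raw counts per gene, gene lengths and RPKM values, and per the labels' protocols the kit was directional. Per the submitters' processing notes, HOMER and hg19 played a part, with no role stated. The aligner, the counting method and its use of strand were not given in the sources used here. Deposited RPKM equalled the count scaled by length and table total in 100% of genes above 20 counts (tolerance 1e-05), and RPKM served to compare genes.

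Hairpin libraries were compared with the edgeR 4.0.16 quasi-likelihood test (R 4.3.3, robust, two-sided, TMM, default expression filter), with Benjamini-Hochberg adjustment over all tested genes and calls at 0.05. SE is the size of the log2 fold change divided by the square root of F. An exact permutation test of 3 against 3 libraries cannot go below 0.1. The untreated lines were compared as ratios of TMM-scaled CPM for genes of at least 20 counts in the higher library. The edgeR test was tried on simulated counts in which no library departed from its group, so that trial does not cover such libraries. Sites came from GENCODE v29 for 32 members, since ACACA had no match by identifier. Intervals came from scipy 1.17.1 and figures from matplotlib 3.10.9, under Python 3.11.15 with pandas 2.3.3 and numpy 2.4.6.

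Members and lists were chosen with earlier results of these data known. The text gives values per library for members that passed, for members 2-fold apart between lines and for CPT1A, PPARG, PLIN2, FASN, SCD, ACLY and ACACA. Per list of other pathway genes it names up to 3 called genes by p and those changed at least 2-fold. Alternatives covered scaling, filter, test (DESeq2 1.42.0, limma 3.58.1), threshold, repeated symbols, a replicate block and each hairpin library left out. Where a symbol was repeated (256 of 40693), the entry with the highest summed count was kept.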

Additional observations from a re-analysis of the deposited data

How the results depend on the processing

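Across 14 alternatives the count of called members was 12 to 16, beside 14 in the report, and the count over all genes was 4565 to 6286. Leaving out each library in turn gave 13 to 16 members. The 14 called members kept direction and call in 187 of 196 member-by-alternative results, and the other 9 belonged to ACSL4 and PPARG. Of the 18 members not called, 8 results became calls, for SCD (total counts 0.0481, no filter 0.00298 and others in the report), ME1, FADS2 (without shFOXA2 replicate 3, adjusted p = 0.012) and ECI2. Directions turned for FASN without the low-count filter (-0.0149), and without shFOXA2 replicate 1 for FADS2, ACADVL, ACAA1 and ACAA2, none of them called. Over each library left out in turn, FADS2 ran from -0.14 to 0.68, ACADVL from -0.0037 to 0.0486, ACAA1 from -0.0962 to 0.6145 and ACAA2 from -0.0273 to 0.7136. Replicate numbers did not pair the hairpin libraries (correlations of same-numbered deviations 0.0314, -0.0182 and 0.0515), and with the number as a replicate block 6139 genes, 16 members and 41 other pathway genes were called, with ME1 (adjusted p = 0.0163) and SCD (0.0473) added. At a 4-fold limit 3 members differed between the untreated lines, 1 higher in SW620 and 2 in SW480. The nominal seed complement alone gave 0 members with a site. For ACADL and other genes near 3 counts, depth sets the limit.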
